A study of Mus musculus with 9 samples.

Results

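The genes described here encode the proteasome and the factors that build, open or block it. Members were the rows of the gene count table whose symbol starts with Psm, a letter from a to g and a digit, less the 3 immunoproteasome catalytic subunits Psmb8, Psmb9 and Psmb10. The rule found 47 of the 15552 genes in the table. It also takes in Psmc3ip, whose product is a recombination factor and no subunit. Of the 47, 45 passed the filter on low counts. The remaining pair, Psma8 and Psmb11, known as the testis and thymus forms of a core subunit, had at most 3 counts and 1 count in any library. In all, 11373 genes passed the filter.

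The proteasome is the protease that degrades most ubiquitin-tagged proteins of the cell. Its barrel-shaped 20S core is built of alpha and beta rings, and the catalytic sites face the inside of the beta rings. The 19S cap at the end of the barrel binds ubiquitin chains, removes them and threads the substrate into the core. Its base holds a ring of ATPases, and its lid holds the deubiquitinase. Core and cap together form the 26S proteasome. Other caps (PA28, PA200) can take the place of 19S, and dedicated chaperones put the rings together. When proteasomes are inhibited, the transcription factor NRF1, encoded by Nfe2l1, raises the genes of the whole complex together.

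The cells were MyC-CaP, a mouse prostate cancer line from a MYC-driven tumor, so every library carries that transgene background. All groups were starved in medium without serum and calcium for 6 to 12 h. The groups at 12 and 24 h then had that time with 15 ng/mL recombinant NRG1, which binds and activates HER3. The 0 h libraries, labeled as NRG1-treated like the others, had no time with it and served as the baseline. Each time point had 3 libraries, labeled as biological replicates. Libraries without NRG1 at 12 and 24 h were not analysed here, so time in the starvation medium and time with NRG1 cannot be told apart. The study's methods describe plating in triplicate wells, and the labels do not say how the replicates were separated. The p-values thus measure the spread between these libraries, which may be partly technical. The libraries held 28467089 to 39239760 counts, and 3 counts corresponded to 0.0764 to 0.106 CPM (counts scaled to a library total of 1e+06). Of the labeled cell type's markers, Hoxb13 was at 81.3 to 106 CPM and Krt8 at 17.3 to 26.2 CPM, whereas Krt18 reached only 0.491 CPM and Epcam, Cdh1, Cldn7 and Tmprss2 were at or near 0. Summed immune and endothelial markers reached at most 1.05 and 0.299 CPM. Of the 4 fibroblast markers in the table, Pdgfra was at 14.8 to 17.7 CPM, while Col1a1, Col1a2 and Dcn reached at most 0.386, 0.0299 and 0.433 CPM. In bulk RNA, fewer cells of a type and less RNA per cell cannot be told apart.

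To show what the promoters of these genes look like, the 150 bases before the annotated start are given for the 2 members with the smallest p at 12 h (Psma1 and Psmd2) and for 2 catalytic subunits (Psmb5 and Psmb6). The sequences are from RefSeq on GRCm38, 5′ to 3′ on the strand of the gene, and the last base is position -1. Capitals mark matches on either strand to CCAAT (the NF-Y box), CCGGAAG (an ETS site), CACGTG (an E-box, the site of MYC) and TGACNNNGC (the core of the element that NRF1 and NRF2 bind).
Psma1, chr7:114276117-114276266, minus strand: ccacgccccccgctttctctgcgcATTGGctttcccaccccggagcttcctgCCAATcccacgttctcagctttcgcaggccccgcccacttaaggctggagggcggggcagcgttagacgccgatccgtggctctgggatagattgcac
Psmd2, chr16:20651502-20651651, plus strand: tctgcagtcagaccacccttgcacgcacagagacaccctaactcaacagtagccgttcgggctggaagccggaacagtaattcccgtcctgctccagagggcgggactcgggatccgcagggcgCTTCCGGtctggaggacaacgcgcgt
Psmb5, chr14:54617996-54618145, minus strand: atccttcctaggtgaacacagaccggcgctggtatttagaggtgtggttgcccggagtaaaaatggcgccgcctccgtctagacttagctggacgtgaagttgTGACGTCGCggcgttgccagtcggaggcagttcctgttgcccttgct
Psmb6, chr11:70525207-70525356, plus strand: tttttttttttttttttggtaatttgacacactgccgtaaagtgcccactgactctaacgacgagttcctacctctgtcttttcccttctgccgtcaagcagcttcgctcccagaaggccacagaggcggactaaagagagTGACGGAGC

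Psma1 held CCAAT on both strands, at -126 and -98. Psmd2 held CCGGAAG on the minus strand at -26. Psmb5 and Psmb6 each held TGACNNNGC, at -47 and -9. Promoter windows were RefSeq windows of 300 bases (250 before and 50 after the start). Windows were used for 39 of 47 members, with 42 windows among them. Windows on chromosome 18, where Psma8 and Psmg2 lie, were left out for the members but kept among all windows. TGACNNNGC was found in 6 of the 42 windows (14.3%), against 12.4% of all 32851 windows. CCAAT was found in 14 (33.3% against 37.4%) and CACGTG in 3 (7.14% against 7.15%). CCGGAAG was found in 16 (38.1% against 8.86%), and the GC box GGGCGG, which is not in capitals, in 23 (54.8% against 35.7%). The shares over all windows were not limited to genes tested here, and the differences were not tested. The motifs were searched on both strands, and a match describes the letters only. Among these 39 members, CCGGAAG was in 3 of the 13 that passed the test at 12 h and in 12 of the 25 tested that did not.

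Before NRG1, the members differed widely in level. Per kilobase of the principal transcript, Psmb4 had the highest level at 0 h with 220 ± 6.1 CPM per kb (SD, n = 3), followed by the lid subunit Psmd8 with 203 ± 3.8 and the alpha subunit Psma7 with 171 ± 1.9. These neighbors in the order differed by more than their SDs. The lowest levels were those of Psmf1, which encodes the inhibitor PI31 (6.21 ± 0.10 CPM per kb), and of Psme2b, a near copy of Psme2 (6.56 ± 0.40). Those of Psmf1 and Psme2b differed by less than the larger of their SDs. The median level was 86.9 CPM per kb over 7 alpha subunits and 92.5 over 7 beta subunits. In the 19S cap it was 71.5 over 6 ATPases, 138 over the 3 other base subunits and 59.4 over 8 lid subunits. The median was 51.8 over the 6 genes of the other caps and the inhibitor, and 20.7 over 7 assembly factors. The 3 catalytic subunits had the lowest levels of the beta ring, at 59.7 ± 0.65 (Psmb5), 60.8 ± 0.76 (Psmb7) and 69.3 ± 1.2 (Psmb6) CPM per kb. The levels of Psmb5 and Psmb7 differed by less than 2 of their SDs. In properties that the rule did not use, the median principal transcript of the members was 1430 bases against 2990 for all genes tested. Their median level was 108 against 33.6 CPM, and their median GC content 49.7% against 49.8%.

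**Figure D1:**
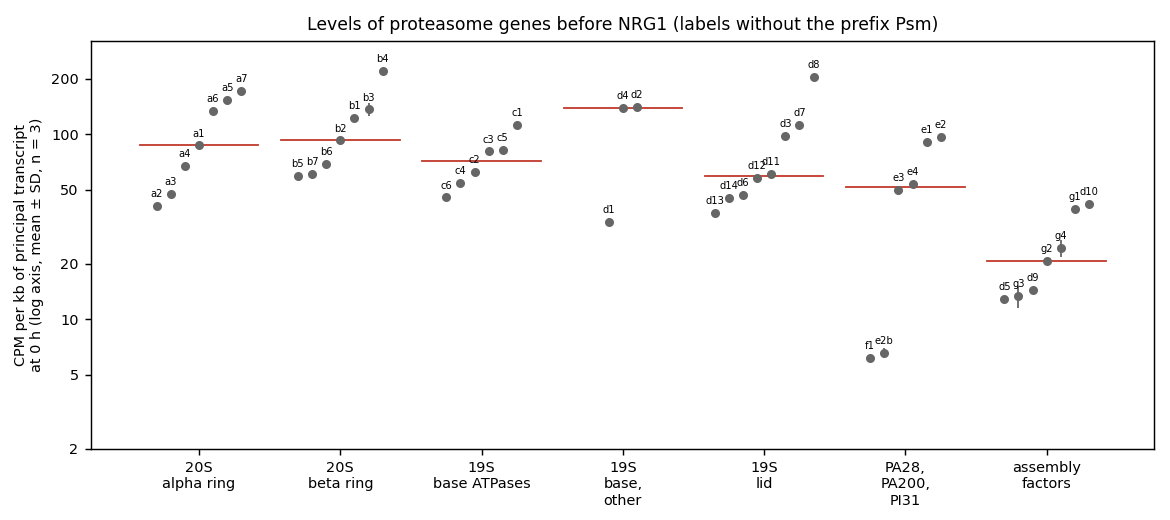
Level of each tested member at 0 h by structural class, in CPM per kilobase of principal transcript on a log axis, as mean ± SD of 3 libraries, with red lines at class medians. Psmb4 (220) and Psmd8 (203) are at the top, Psmf1 (6.21) and Psme2b (6.56) at the bottom, and the assembly factors lie below most ring and cap subunits.

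After 12 h, every member that passed the test had risen, most of them core, base or lid subunits, and none reached 1.5-fold. Of 45 members tested, 13 rose and 0 fell (edgeR quasi-likelihood test, Benjamini-Hochberg adjusted p at most 0.05 over all genes). The members that rose were 4 alpha subunits (Psma1, Psma2, Psma3, Psma5), the beta subunits Psmb3 and Psmb4, the base scaffolds Psmd1 and Psmd2, the lid subunits Psmd8, Psmd12, Psmd13 and Psmd14, and the assembly chaperone Psmd10. The 13 are 28.9% of the members, against 13.6% of all genes tested that rose and 11.9% that fell. The median SE was 0.0406 for the members and 0.0607 for all genes, so a change of a given size passes more easily among members. At an unadjusted p under 0.05, 18 members were higher and 1 lower, where 36.9% of all genes were past that p in either direction. With the adjusted p, 25.5% of all genes changed. DESeq2 called 14 higher and 0 lower. With the GC trend removed, 13 were higher and Psme4 lower. The 1.5-fold threshold of the study was met by 0 members, against 2.29% of all genes, and the 95% intervals of all 45 lay within 1.5-fold in both directions.

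The estimates pointed upward in 38 of 45 members, against 49.1% of all genes with a positive log2 fold change. Their median was 0.0765 on the log2 scale, or 5.45%, while that of all genes was -0.00278. Of the 31 subunits of core and 19S cap, 30 had a positive estimate and only Psmb1, at -0.0137, a negative one. Members share a complex and libraries, so these counts are a description. The 3 libraries at 12 h lay above those at 0 h, without overlap, for 21 of 45 members, and below them for Psme1 alone, where the shares of all genes were 19.9% and 18.5%. In the sum over all members, the 0 h libraries held 5248, 5337 and 5399 CPM, those at 12 h 5709, 5708 and 5525 CPM, and those at 24 h 5372, 5296 and 5386 CPM. The 12 h libraries were thus the highest, and replicate 3 at 12 h was the lowest of them in this sum. Without it, 20 members passed at 12 h, 19 higher and Psme4 lower, and the median was 0.113.

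**Figure D2:**
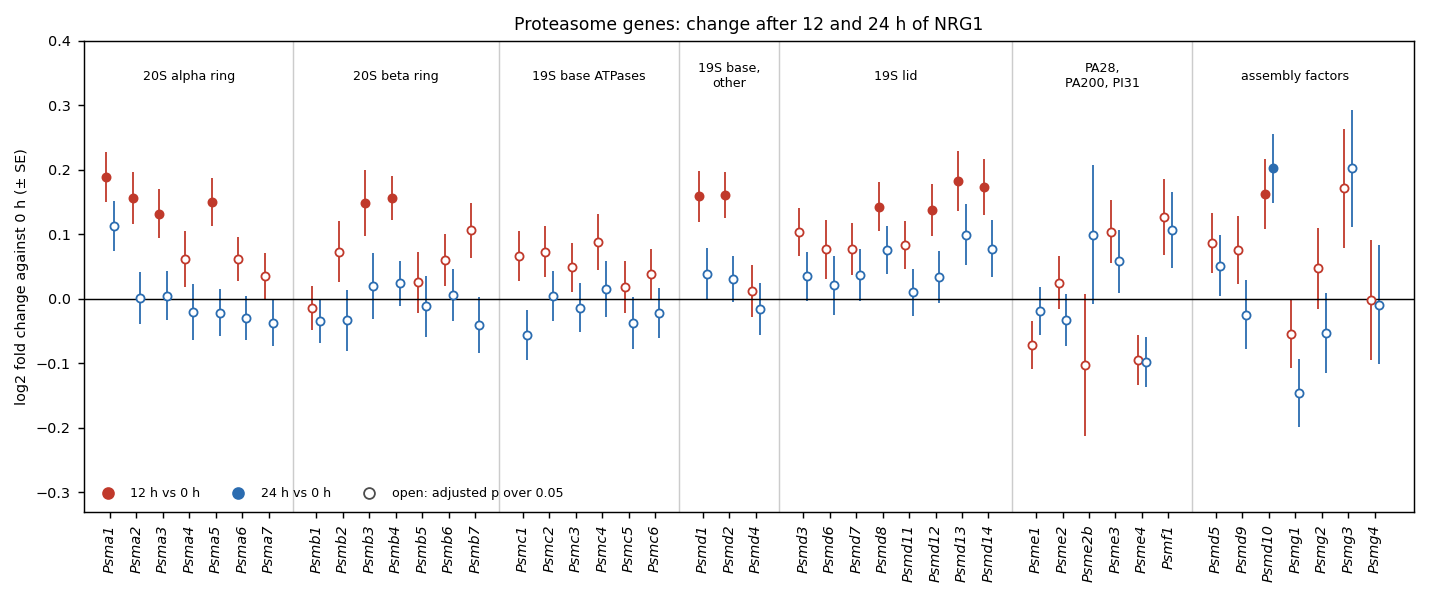
Log2 fold change against 0 h (± SE) for each tested member at 12 h (red) and 24 h (blue), from 1 edgeR fit of 9 libraries, grouped by structural class; filled symbols passed an adjusted p of 0.05. At 12 h, 30 of 31 core and 19S cap subunits are above 0, up to 0.189 for Psma1; at 24 h most lie near 0 and only Psmd10 (0.202) passed.

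The alpha ring, which gates the entrance of the core, had 4 of 7 members that rose at 12 h (57.1%, against 13.6% of all genes). Its median was 0.132. Psma1 was at 101, 109 and 104 CPM at 0 h, 119, 121 and 117 at 12 h, and 114, 110.1 and 115 at 24 h. All 12 h libraries were above all 0 h libraries. Its log2 fold change at 12 h was 0.189 ± 0.0385 (SE; adjusted p = 0.00167), the largest among the members. Psma5 was at 180.4, 193 and 194 CPM at 0 h, 214, 209 and 207 at 12 h, and 186, 187 and 186 at 24 h. The 12 h libraries stood above both other groups, which overlapped each other, and the change at 12 h was 0.150 ± 0.0368 (adjusted p = 0.00665). Psma2 was at 115, 122 and 121 CPM at 0 h, 138, 132 and 130 at 12 h, and 122, 115 and 122 at 24 h. It showed the same order, with a change of 0.156 ± 0.0406 (adjusted p = 0.00931), but it no longer passed without replicate 1 at 12 h. Psma3 rose by 0.132 ± 0.0377 (adjusted p = 0.0161) and no longer passed when replicate 2 was left out at 0 h or at 12 h. Psma4, Psma6 and Psma7 had estimates of 0.035 to 0.062 that did not pass.

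In the beta ring, 2 of 7 members rose (28.6%, against 13.6% of all genes) and the median was 0.073. Both were non-catalytic. Psmb4 was at 253, 268 and 262 CPM at 0 h, 291, 295 and 285 at 12 h, and 266, 262 and 268 at 24 h. Its 12 h libraries stood clear of both other groups, with a change of 0.156 ± 0.0346 (adjusted p = 0.00326). Psmb3 rose by 0.149 ± 0.0509 (adjusted p = 0.0407), a call that held in 11 of 19 alternatives. It ended in 5 of 9 fits that left out 1 library (replicates 1 at each time point, replicate 2 at 12 h and replicate 3 at 24 h). The call was also lost with total counts, with the length trend removed and with only the 2 time points.

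The 3 catalytic subunits did not pass in any comparison between 2 time points. Psmb5, the chymotrypsin-like subunit and the main target of bortezomib, was at 53.9, 53.0 and 54.1 CPM at 0 h, 52.8, 56.0 and 55.2 at 12 h, and 54.9, 49.95 and 54.9 at 24 h. The groups overlapped, and the change at 12 h was 0.0258 ± 0.0471 (adjusted p = 0.738; 95% interval -0.0739 to 0.125). In this gene, 12.1% of the exonic bases overlap the microRNA gene Mir686. Psmb6, the caspase-like subunit, was at 56.1, 54.3 and 55.6 CPM at 0 h, 57.5, 58.5 and 57.0 at 12 h, and 56.0, 54.5 and 56.0 at 24 h. Its 12 h libraries were the highest without overlap, and the change was 0.0606 ± 0.0404 (adjusted p = 0.300; 95% interval -0.0249 to 0.146). Psmb7, the trypsin-like subunit, was at 69.9, 71.6 and 70.3 CPM at 0 h, 77.6, 76.6 and 73.6 at 12 h, and 71.6, 69.3 and 65.2 at 24 h. Its change at 12 h was 0.106 ± 0.0432 (adjusted p = 0.0843; 0.138 and 0.0366 without replicate 3 at 12 h), and 11.8% of its exonic bases overlap Nek6 on the other strand. Between 12 and 24 h its change was -0.146 ± 0.0432 (adjusted p = 0.0618), which passed without a filter on low counts (adjusted p = 0.0463) and without replicate 3 at 12 h (adjusted p = 0.0273). It also passed the test over all 3 time points (adjusted p = 0.0405).

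**Figure D3:**
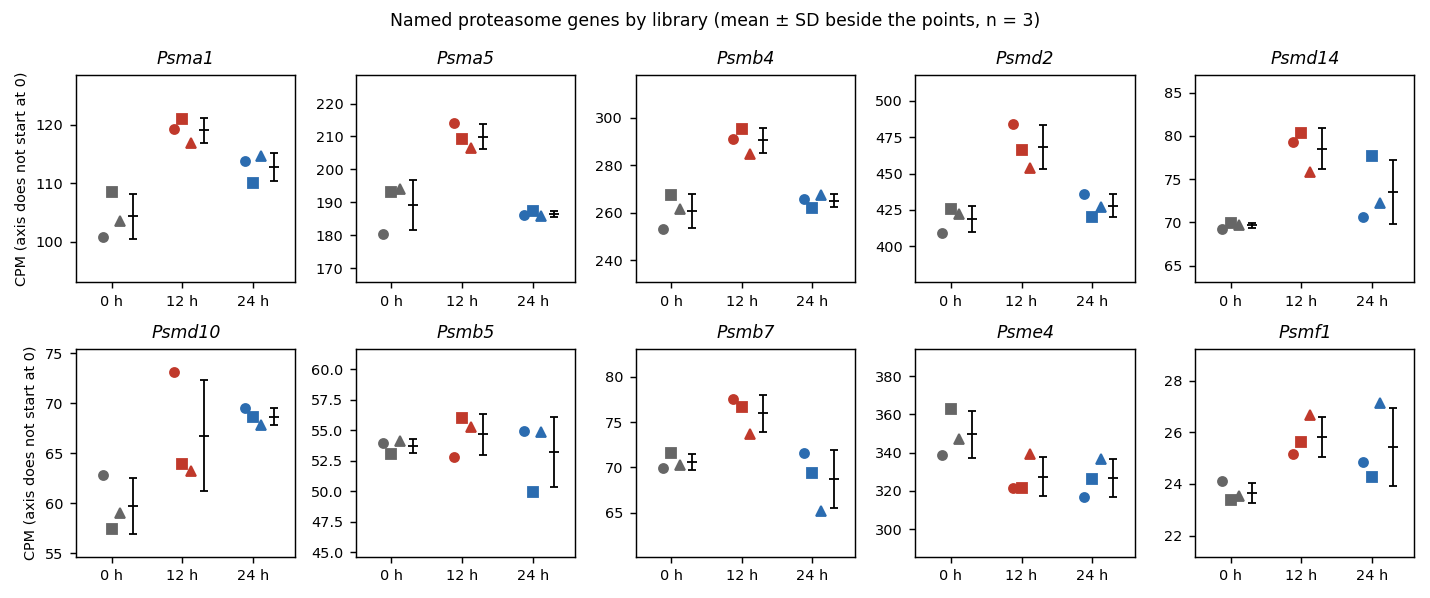
CPM in each library for 10 members (circles, replicate 1; squares, replicate 2; triangles, replicate 3; gray 0 h, red 12 h, blue 24 h), with mean ± SD of 3 libraries beside the points and axes that do not start at 0. For Psma1, Psma5, Psmb4 and Psmd2 the 12 h points lie above the 0 h and 24 h points; for Psmb5 the groups overlap.

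In the 19S base, 2 of the 3 subunits that are no ATPases rose (66.7%, against 13.6% of all genes). Psmd2, which docks the shuttle proteins that deliver ubiquitin-tagged substrates, was at 409, 426 and 422 CPM at 0 h, 484, 466 and 454 at 12 h, and 436, 420.2 and 427 at 24 h. All 12 h libraries were the highest, with a change of 0.161 ± 0.0356 (adjusted p = 0.00321). Psmd1, the large scaffold of the base, rose by 0.159 ± 0.0397 (adjusted p = 0.00714). Its libraries held 99.1 to 109.7 CPM at 0 h and 117 to 118 CPM at 12 h. Psmd4, a ubiquitin receptor, had an estimate of 0.0119 ± 0.0406 (adjusted p = 0.868; 95% interval -0.0741 to 0.0978). The ATPases Psmc1 to Psmc6, which unfold the substrate, all had positive estimates, from 0.0184 (Psmc5) to 0.0877 (Psmc4). By edgeR 0 of 6 passed, at an unadjusted p under 0.05 also 0, and by DESeq2 0. Their median was 0.0576, below those of the alpha ring and the lid. The difference between classes was not tested.

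In the lid, 4 of 8 members rose (50%, against 13.6% of all genes) and the median was 0.121. Psmd14, the deubiquitinase that removes the ubiquitin chain, was at 69.3, 70.0 and 69.7 CPM at 0 h, 79.3, 80.4 and 75.8 at 12 h, and 70.6, 77.6 and 72.3 at 24 h. The 12 h libraries were above all at 0 h, with a change of 0.173 ± 0.0436 (adjusted p = 0.00791). Psmd13 rose by 0.183 ± 0.0468 (adjusted p = 0.00859), was lost without replicate 2 at 12 h, and shares 10.1% of its exonic bases with Sirt3 on the other strand. Psmd8 rose by 0.143 ± 0.0375 (adjusted p = 0.0101). Psmd12 rose by 0.138 ± 0.0401 (adjusted p = 0.018) and no longer passed when replicate 1 was left out at 0 h or at 12 h, or replicate 2 at 12 h. Psmd3 missed the threshold at 0.104 ± 0.0375 (adjusted p = 0.0521). Psmd6, Psmd7 and Psmd11 had estimates of 0.0765 to 0.0834 that did not pass. Psma1, Psma5, Psmb4, Psmd1, Psmd2, Psmd8 and Psmd14 passed at 12 h in all 19 alternative analyses, and were 7 of the 13.

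**Figure D4:**
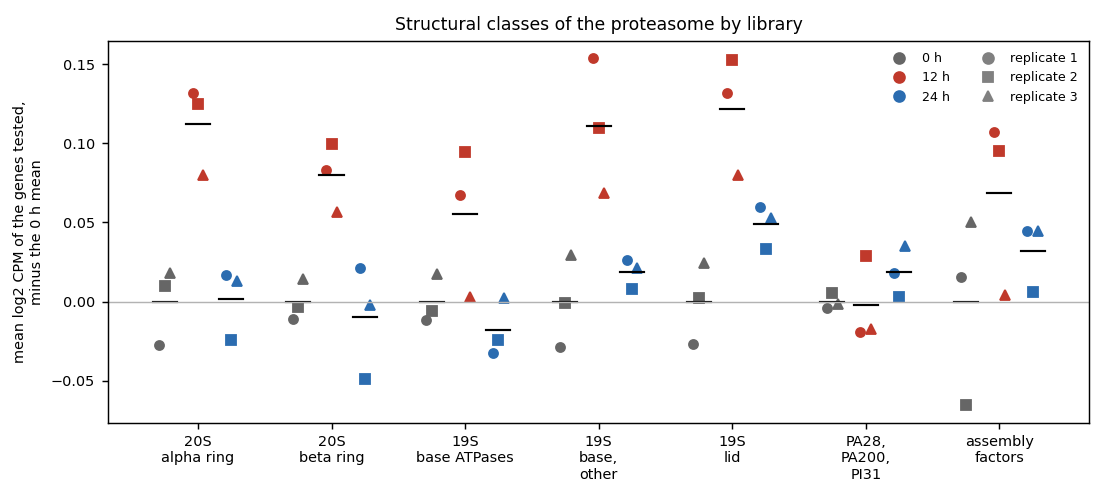
Each library's mean log2 CPM over the tested genes of a structural class, minus the class mean at 0 h (lines, mean of 3 libraries; shapes, replicates). In the alpha ring, beta ring, non-ATPase base and lid all 3 points at 12 h lie above those at 0 h; among the ATPases replicate 3 at 12 h (0.00301) does not, and the other caps overlap.

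Among the alternative caps and the inhibitor the estimates went both ways. Of these 6 genes, 0 passed at 12 h by edgeR or by DESeq2 (2 higher and 1 lower at an unadjusted p under 0.05 in edgeR), and the median was -0.0231. Psme4, which encodes PA200, a cap linked to the breakdown of acetylated histones, was at 339, 363 and 347 CPM at 0 h, 322, 322 and 339 at 12 h, and 317, 327 and 337 at 24 h. The 24 h libraries lay below those at 0 h without overlap, and those at 12 h overlapped them narrowly. Its estimates were negative at both times, -0.0945 ± 0.0387 at 12 h (adjusted p = 0.085) and -0.0982 ± 0.0387 at 24 h (adjusted p = 0.0936). At 12 h it passed as lower in 3 of 19 alternatives: with the GC trend removed (adjusted p = 0.0264), with the GC trend removed and the replicate block (adjusted p = 0.0274), and without replicate 3 at 12 h (adjusted p = 0.0499). Over all 19 alternatives, the adjusted p of Psme4 at 12 h lay between 0.0264 and 0.339. Psme3, the nuclear PA28 subunit, was at 124, 133 and 139.8 CPM at 0 h, 140.3, 153 and 134 at 12 h, and 139, 139 and 135 at 24 h. The groups at 0 and 12 h overlapped (0.104 ± 0.0490, adjusted p = 0.134), and without replicate 3 at 12 h the estimate was 0.154 (adjusted p = 0.0225).

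Psmf1 was at 24.1, 23.4 and 23.5 CPM at 0 h, 25.2, 25.6 and 26.7 at 12 h, and 24.9, 24.3 and 27.2 at 24 h. Both later groups lay above 0 h, but the changes of 0.127 ± 0.0587 (adjusted p = 0.128) and 0.107 ± 0.0585 (adjusted p = 0.238) did not pass. Psme1 and Psme2, the interferon-inducible PA28 pair, had estimates of -0.0713 and 0.0252 at 12 h. Psme2b was at 4.69 to 6.06 CPM, and how reads shared with Psme2 were counted is not given in the sources used here. Of the catalytic subunits of the immunoproteasome, which the rule leaves out, Psmb8 and Psmb9 were low. They were at 2.64 to 3.86 and 0.675 to 1.08 CPM and did not pass. Psmb10 was at 30.3, 32.3 and 31.1 CPM at 0 h and 27.1, 27.6 and 27.0 CPM at 12 h. It fell by 0.199 ± 0.0560 on the log2 scale (adjusted p = 0.0149).

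Of the 7 assembly factors, 1 rose at 12 h (14.3%, close to the 13.6% of all genes). Psmd10 (gankyrin), a chaperone of the base that is known as an oncoprotein in liver, was at 62.9, 57.4 and 59.0 CPM at 0 h, 73.1, 63.9 and 63.3 at 12 h, and 69.6, 68.6 and 67.8 at 24 h. Both later groups were above 0 h without overlap, and the change at 12 h was 0.163 ± 0.0542 (adjusted p = 0.0354). That call was lost in 7 of 19 alternatives. Leaving out replicate 1 of the 12 h group gave 0.0917 (adjusted p = 0.210). Leaving out replicate 2 or 3 of the 0 h group, or replicate 1 or 3 of the 24 h group, gave adjusted p = 0.127, 0.0877, 0.0521 and 0.0564. The other base chaperones, Psmd5 and Psmd9, had estimates of 0.0865 and 0.0758, and 25.5% of the exonic bases of Psmd9 overlap Gm26745 on the other strand. The alpha ring chaperones Psmg1 to Psmg4 ranged from -0.0541 (Psmg1) to 0.171 ± 0.0918 (Psmg3), and none passed. When replicate 3 of the 0 h group was left out, the estimate of Psmg3 became 0.298 and passed (adjusted p = 0.029). Psmc3ip, the recombination factor that shares the name, was at 9.44, 9.39 and 10.5 CPM at 0 h, 9.81, 10.03 and 8.84 at 12 h, and 9.27, 10.7 and 10.4 at 24 h. It did not pass at any time (at 12 h -0.0298 ± 0.0912, adjusted p = 0.850), and 21.2% of its exonic bases overlap Mlx.

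After 24 h, the estimates of the core and cap genes against 0 h lay near 0. Only 1 of 45 members passed against 0 h, 2.22% of the members against 17.4% of all genes (9.67% rose and 7.76% fell). That member was Psmd10, with a change of 0.202 ± 0.0540 (adjusted p = 0.0158). Leaving out replicate 2 or 3 of the 0 h group ended that call (adjusted p = 0.0727 and 0.0530), as did leaving out replicate 1 of the 24 h group (adjusted p = 0.0557). It shares the 0 h libraries with the comparison at 12 h. Without replicate 3 of the 0 h group, the 1 member that passed was Psmg3 instead (0.327, adjusted p = 0.0246), whose estimate with all libraries was 0.202 ± 0.0911 (adjusted p = 0.146). Of the members, 0 fell by edgeR or by DESeq2, and at an unadjusted p under 0.05 edgeR had 4 higher and 2 lower, where 30.2% of all genes were past that p. The 1.5-fold threshold was met by 0 members, against 2.27% of all genes. The median of the members was 0.00459 and 25 of 45 estimates were positive, against 47.9% of all genes. The range was -0.146 (Psmg1) to 0.202 (Psmd10), and all 45 intervals lay within 1.5-fold. Libraries did not overlap for 5 members higher and 6 lower of 45, against 17.6% and 17.9% of all genes.

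Psma1 kept an estimate of 0.113 ± 0.0385 at 24 h, just outside the threshold (adjusted p = 0.0532). The class medians were -0.0203 for the alpha ring, -0.0116 for the beta ring, -0.0179 for the ATPases and 0.0304 for the other base subunits. In the lid, all 8 estimates were positive, from 0.0102 to 0.0995, with a median of 0.0358, and 0 of the 8 passed (1 at an unadjusted p under 0.05). Psmg1, an alpha ring chaperone, was at 41.8, 41.1 and 40.5 CPM at 0 h and 37.2, 37.5 and 36.8 CPM at 24 h. These libraries did not overlap, but its change of -0.146 ± 0.0531 missed the threshold (adjusted p = 0.0687). Of the catalytic and lid enzymes, Psmb5 had an estimate of -0.0116, Psmb6 of 0.00537, Psmb7 of -0.0402 and Psmd14 of 0.0779 ± 0.0436 (adjusted p = 0.251). Summed over the 20S core genes, the level went from 1760 ± 26.4 CPM (SD, n = 3) before NRG1 to 1888 ± 32.7 after 12 h and 1756 ± 24.6 after 24 h. Over the 19S cap genes, the sums in this order were 2611 ± 39.2, 2803 ± 60.9 and 2650 ± 18.2 CPM.

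Between 12 and 24 h, 4 members fell and 0 rose. These 4 are 8.89% of the members, against 5.03% of all genes (3.06% fell and 1.97% rose). DESeq2 called 5 lower and 0 higher, and at an unadjusted p under 0.05 edgeR had 13 lower and 0 higher, where 20.1% of all genes were past that p. At 1.5-fold, 0 members passed, against 0.29% of all genes. Psma5 fell by 0.171 ± 0.0368 (adjusted p = 0.0132), Psma2 by 0.155 ± 0.0405 (0.0358), Psmb4 by 0.132 ± 0.0346 (0.0362) and Psmd2 by 0.130 ± 0.0356 on the log2 scale (0.0433). For each, the values given above show all 24 h libraries below all 12 h libraries. All 4 are among the 13 that rose at 12 h, and both comparisons use the same 12 h libraries. The estimates were negative in 40 of 45 members and in all 31 core and 19S cap subunits, with a median of -0.0692, against 50.9% of all genes with a positive estimate and a median of 0.00231. Libraries did not overlap for 15 of 45 members lower and 2 higher, against 13.6% and 11.4% of all genes. The calls rested on few libraries: 0 members passed when replicate 1 at 12 h or any 1 of the 24 h replicates was left out. Leaving out replicate 2 of the 12 h group gave 1 (Psma5), and leaving out its replicate 3 gave 8. Over all 3 time points at once, 13 of 45 members differed (28.9%), a share close to the 27.4% of all genes. These were 12 of the 13 that rose at 12 h, without Psmb3 (adjusted p = 0.0636), and Psmb7. That count was 7 when replicate 1 or 2 of the 12 h group was left out, and 8 when replicate 2 of the 0 h group was.

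Other genes of the pathway were read in the same fit. Among 8 proteasome parts whose names fall outside the rule, 2 rose at 12 h (25%, against 13.6% of all genes). Akirin2, which helps carry proteasomes into the nucleus, rose by 0.148 ± 0.0448 (adjusted p = 0.0221) and was also higher at 24 h (0.228 ± 0.0445, adjusted p = 0.00176). Txnl1, a thioredoxin bound to the 19S cap, rose by 0.111 ± 0.0386 (adjusted p = 0.0437). Pomp, the maturation factor of the core, had an estimate of 0.114 ± 0.0444 (adjusted p = 0.0717), and Paaf1 was not analysed here.

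In the NRF1 list of 7 genes, 0 rose and 1 fell at 12 h (14.3%), where 13.6% of all genes rose and 11.9% fell. That gene was Syvn1, an ER ubiquitin ligase (-0.190 ± 0.0399, adjusted p = 0.00213). Syvn1 was also lower at 24 h against 0 h (-0.21 ± 0.0398, adjusted p = 0.00139), where 7.76% of all genes fell. Nfe2l1 itself was at 434, 437 and 432 CPM at 0 h, 461, 440.2 and 489 at 12 h, and 487, 485 and 483 at 24 h. It passed at 24 h (0.160 ± 0.0377, adjusted p = 0.00712) but not at 12 h (0.0929 ± 0.0378, adjusted p = 0.0825). The NRF1 protease gene Ddi2 had an estimate of -0.0444 at 12 h.

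At 12 h, 13.6% of all genes rose and 11.9% fell. Among 13 ubiquitin and shuttle genes, Rad23b (0.171 ± 0.0339, adjusted p = 0.00138) and Zfand2a (0.292 ± 0.0931, adjusted p = 0.029) rose at 12 h (15.4%). Ubqln2 fell (-0.179 ± 0.0371, adjusted p = 0.00194; 7.69%). At 24 h against 0 h, Zfand2a (0.526 ± 0.0914, adjusted p = 0.000651) and Ubb (0.195 ± 0.0606, adjusted p = 0.0335) were higher. They were 15.4% of the list, against 9.67% of all genes. The libraries of Ubb at 0 and 24 h overlapped. Rad23b and Ubqln2 did not pass at 24 h (adjusted p = 0.0803 and 0.131). Among other large complexes, 3 of 8 genes of the chaperonin TRiC rose at 12 h (Tcp1, Cct6a and Cct7; 37.5%). Between 12 and 24 h, 2 of 8 fell (Tcp1 and Cct3; 25%, against 3.06% of all genes). Of 10 genes of the COP9 signalosome, a complex built like the lid, 0 passed at 12 h by edgeR, and 0 had an unadjusted p under 0.05. Of 77 cytosolic ribosomal protein genes, 0 rose and 1 fell (1.3%) at 12 h, and of 77 mitochondrial ones 4 rose (5.19%) and 2 fell (2.6%). The median log2 fold changes at 12 h were 0.0573 for TRiC, 0.0343 for COP9, -0.0104 for cytosolic and 0.041 for mitochondrial ribosomal proteins, beside 0.0834 for the 31 core and 19S cap subunits. Between 12 and 24 h, the medians in this order were -0.111, -0.0431, 0.0268 and -0.0395, beside -0.0767. The fall of the TRiC median was thus larger than that of the core and cap subunits. The differences between these lists were not tested.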

How the data were processed

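Reads were trimmed with Cutadapt, aligned to GRCm38.p6 with STAR under the GENCODE vM24 annotation and counted per gene with featureCounts by the authors, per the study's methods. The deposited values are raw counts per gene, without normalization. Strand setting and treatment of multi-mapping reads are not given in the sources used here. The CPM values were computed here from the deposited counts after TMM scaling.

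Counts were filtered with filterByExpr and fitted for all 9 libraries together in edgeR 4.0.16 (R 4.3.3; glmQLFit, glmQLFTest), with time point as the only term. p-values were adjusted by Benjamini-Hochberg over 11373 genes, and a member passed at an adjusted p of at most 0.05. The study's threshold, 1.5-fold with DESeq2, was counted beside it. Levels per kilobase used APPRIS principal transcripts of GENCODE M21. Full values were given for up to 4 members per direction with the smallest p, the first of each class, and Psmb5, Psmb6, Psmb7, Psmd14, Psme3, Psme4, Psmf1 and Psmc3ip. Psma3, Psmb3, Psmd1, Psmd8, Psmd12, Psmd13 and members near the threshold were added. The members and lists were chosen with earlier results of these data known. Procedures were tested on simulated data. Alternatives were RLE and total-count scaling, DESeq2 1.42.0, other filters, a replicate block, GC and length trends, fits of 2 time points, and leaving out each library. A marker of the labeled cell type is not reported here.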

Additional observations from a re-analysis of the deposited data

How the results depend on the processing

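At 12 h against 0 h, the count of passing members was 13 with the replicate block and 11 to 15 under the other settings, and 9 to 20 when 1 library was left out (20 without replicate 3 at 12 h). Psme4 was called lower in that fit and, with the GC trend removed, both with and without the replicate block. At 24 h against 0 h, the count of 1 became 3 with the length trend removed, 2 with a mean of at least 10 CPM, 3 with only the 2 time points and 2 with RLE size factors. The members added were Psma1, higher, and, with the length trend removed or only 2 time points, Psmg1, lower. It was 0 to 3 when 1 library was left out. At 24 h against 12 h, the count of 4 was also 4 with the replicate block, 2 with the replicate block and the GC trend removed, 1 with total counts, and 0 to 8 when 1 library was left out. For the 3 time points together it was 13 with the block and 7 to 17 when 1 library was left out. The median log2 fold changes ranged over these leave-one-out fits from 0.067 to 0.113 at 12 h, from -0.00407 to 0.0316 at 24 h, and from -0.0983 to -0.0452 between 12 and 24 h. The cause was not tested.

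Among the members described in full, some estimates that passed in no analysis changed sign: Psmb5 at 12 h (-0.00708) and Psmb6 at 24 h (-0.00188) with the length trend removed, and Psme4 between 12 and 24 h with the GC trend removed (0.00936), with the block and the GC trend removed (0.00907), with a mean of at least 10 CPM (0.00399) and with total counts (0.0104). When 1 library was left out, their ranges that cross 0 were -0.0319 to 0.037 for Psmb5 and -0.00514 to 0.0235 for Psmb6 and -0.0687 to 0.000396 for Psmb7 at 24 h, and -0.0656 to 0.0322 for Psmc3ip at 12 h. Between 12 and 24 h they were -0.063 to 0.00434 for Psmb5, -0.0911 to 0.00985 for Psme3, -0.0203 to 0.0218 for Psme4 and -0.066 to 0.0107 for Psmf1. Other members also changed sign in some alternatives, at 12 h for instance Psmd4 (-0.0267 to 0.0631), Psmc5 (-0.0259 to 0.0624), Psmg1 (-0.0972 to 0.0134) and Psmb1 (-0.0279 to 0.013). Total counts moved the share of higher calls among all genes between 12 and 24 h from 39.2% to 51.3%.

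The values did not settle whether the replicate numbers pair the samples. Of 9 pairs with the same number, 1 had a correlation of deviations over 0.1 (range -0.0744 to 0.131). Pairs with different numbers ranged from -0.125 to 0.12. Of 18 best matches, 11 were to the own number. The replicate block changed the call of no member in the 3 pairwise comparisons. The SE at 12 h was largest for the members with the lowest levels in CPM. It was 0.11 for Psme2b, 0.0912 for Psmc3ip, 0.0918 for Psmg3 and 0.0925 for Psmg4, against a median of 0.0406 over all members.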
